A study of Mus musculus with 22 samples.

Results

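Collagen expression was described here for 10 genes in mouse liver: Col1a1, Col1a2, Col3a1, Col5a1 and Col5a2 of the fibrillar collagens, Col14a1, which encodes a collagen bound to fibril surfaces, Col6a1 and Col6a2 of the beaded microfibrils, and Col4a1 and Col4a2 of basement membranes. The members were all array probes that are no controls and carry one of these gene names. They are 20 probes of 41174, for 10 of 28034 gene names. Liver RNA was hybridised on 22 arrays in 6 groups, all from C57BL/6 mice. The newborns were 4 Tcf7l2+/+ (wild type) and 4 Tcf7l2-/- (knockout) pups, which received 50 ul of 10% glucose under the skin and whose livers were collected 5 h after birth. All adults carried Tcf7l2loxp/loxp and were given tamoxifen at 3 weeks of age. Adult controls had no Cre, and adult knockouts (LTCF4KO) carried SA-CreERT2, a Cre recombinase that tamoxifen activates. After 1 to 2 months, 4 controls and 4 knockouts went without food for 24 h, and 3 controls and 3 knockouts were fed over the same time. The labels do not say what drives SA-CreERT2 or which part of Tcf7l2 was removed.

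Collagens are trimers of chains that share a repeated glycine-containing triplet. Types I, III and V assemble into banded fibrils, with type V in the fibril core, whereas type XIV binds to the fibril surface. Type VI forms beaded filaments around cells, and type IV forms the sheet-like network of basement membranes. In liver, stellate cells, portal fibroblasts and sinusoidal endothelial cells are the main known sources of these chains, and hepatocytes make little of them. Tcf7l2, the gene deleted in this study, encodes a partner of beta-catenin at the genes that Wnt signals control.

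The probe sequences show which stretch of each transcript was read. The brightest probes of Col1a2, Col6a1 and Col6a2 cross an in-frame stop triplet, shown in capitals, and are given because the values of these 3 genes come from them wherever no further probe is named. Their positions on mm9 are chr6:4490619-4490678 (plus strand), chr10:76171899-76171958 (minus strand) and chr10:76058931-76058990 (minus strand).
Col1a2: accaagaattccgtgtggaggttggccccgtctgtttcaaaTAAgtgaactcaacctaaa
Col6a1: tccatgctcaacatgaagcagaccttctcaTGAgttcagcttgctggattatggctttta
Col6a2: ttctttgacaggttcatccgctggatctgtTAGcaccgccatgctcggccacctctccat

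The next 4 are further probes of genes with a brighter probe, and are given because they are a separate reading of the same gene. The capitals in Col5a1 mark 6 triplets that begin with GG, 1 in every 3 triplets of the frame, the repeat of the collagen helix. The Col4a1 and Col5a1 probes span a longer stretch of the genome than their 60 bases and so cross a splice junction. On mm9 they lie at chr11:94812052-94812111 (plus strand), chr8:11199846-11201680 (minus strand), chr8:11448180-11448239 (plus strand) and chr2:27842243-27844666 (plus strand).
Col1a1: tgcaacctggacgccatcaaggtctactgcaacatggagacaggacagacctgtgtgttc
Col4a1: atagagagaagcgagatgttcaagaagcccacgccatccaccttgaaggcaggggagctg
Col4a2: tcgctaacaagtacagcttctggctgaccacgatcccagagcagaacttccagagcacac
Col5a1: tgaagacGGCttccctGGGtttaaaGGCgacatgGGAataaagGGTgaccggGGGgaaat

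The brightest probes of the other genes lie at chr11:94813075-94813134 (plus strand) for Col1a1, chr1:45405589-45405648 (plus strand) for Col3a1, chr8:11199009-11199068 (minus strand) for Col4a1, chr8:11448840-11448899 (plus strand) for Col4a2, chr2:27892892-27892951 (plus strand) for Col5a1, chr1:45433621-45433680 (minus strand) for Col5a2 and chr15:55352132-55352191 (plus strand) for Col14a1. No mm9 annotation was used here, so these positions carry no exon or UTR class. By the order of genes in RefSeq, 3 pairs of members are direct neighbours with no protein-coding gene between them, Col4a1 and Col4a2 on chromosome 8, Col3a1 and Col5a2 on chromosome 1, and Col6a1 and Col6a2 on chromosome 10.

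Each array held the RNA of 1 liver beside the same mouse reference RNA, and values are the log2 of liver over reference, so a ratio compares a liver with the reference and not one gene with another. Of the liver-channel spots, 50.2% to 64.4% were well above background on newborn arrays, 50.2% to 62.0% on fasted arrays and 22.8% to 31.2% on fed arrays. Hepatocyte markers were high in every group, with mean log2 ratios of 5.60 to 7.33 over 10 genes. The brightest Tcf7l2 probe read lower in newborn knockouts by -0.87 ± 0.19 (SE), which did not pass the test (limma adjusted p = 0.0580). It read 0.35 ± 0.17 higher in fasted and 0.21 ± 0.20 higher in fed adult knockouts (adjusted p = 0.489 and 0.999), so adult knockouts are named by their labels alone. A further Tcf7l2 probe, well above background on every newborn array, was not lower in newborn knockouts. It read 0.08, -0.31, -0.03 and 0.02 in newborn wild types and 0.08, -0.06, -0.09 and 0.16 in newborn knockouts. Newborn wild types were all on 1 slide and newborn knockouts on another, so that genotype and slide cannot be told apart in newborns. Age, feeding, the glucose and tamoxifen treatments, the Tcf7l2 alleles and the slides differ together between newborns and adults, and their parts cannot be told apart.

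Each member's brightest probe was well above background in the liver channel on all 8 newborn and all 8 fasted arrays. On the 6 fed arrays this held for Col1a2, Col3a1 and Col14a1 on all 6, for Col5a1 on 5, for Col1a1 on 3, for Col4a2 on 2, and for Col4a1, Col5a2, Col6a1 and Col6a2 on none. All 10 brightest probes passed the filter on low signals, and 16 of the 20 probes did so in the fit of all arrays.

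All 10 collagen genes were higher in newborn wild-type than in adult control livers. The background is wide: 58.4% of the 18905 genes tested were called in this comparison, 31.6% as higher and 26.8% as lower in newborns (limma with Benjamini-Hochberg adjusted p under 0.05). The median change of the 10 genes was 2.01 on the log2 scale, against 0.03 over all genes tested. The changes ran from 0.45 for Col6a2 to 3.08 for Col5a1. For 8 of the 10 genes, all but Col6a1 and Col6a2, every newborn wild type lay above every adult control, which held for 20.1% of all genes.

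**Figure D1:**
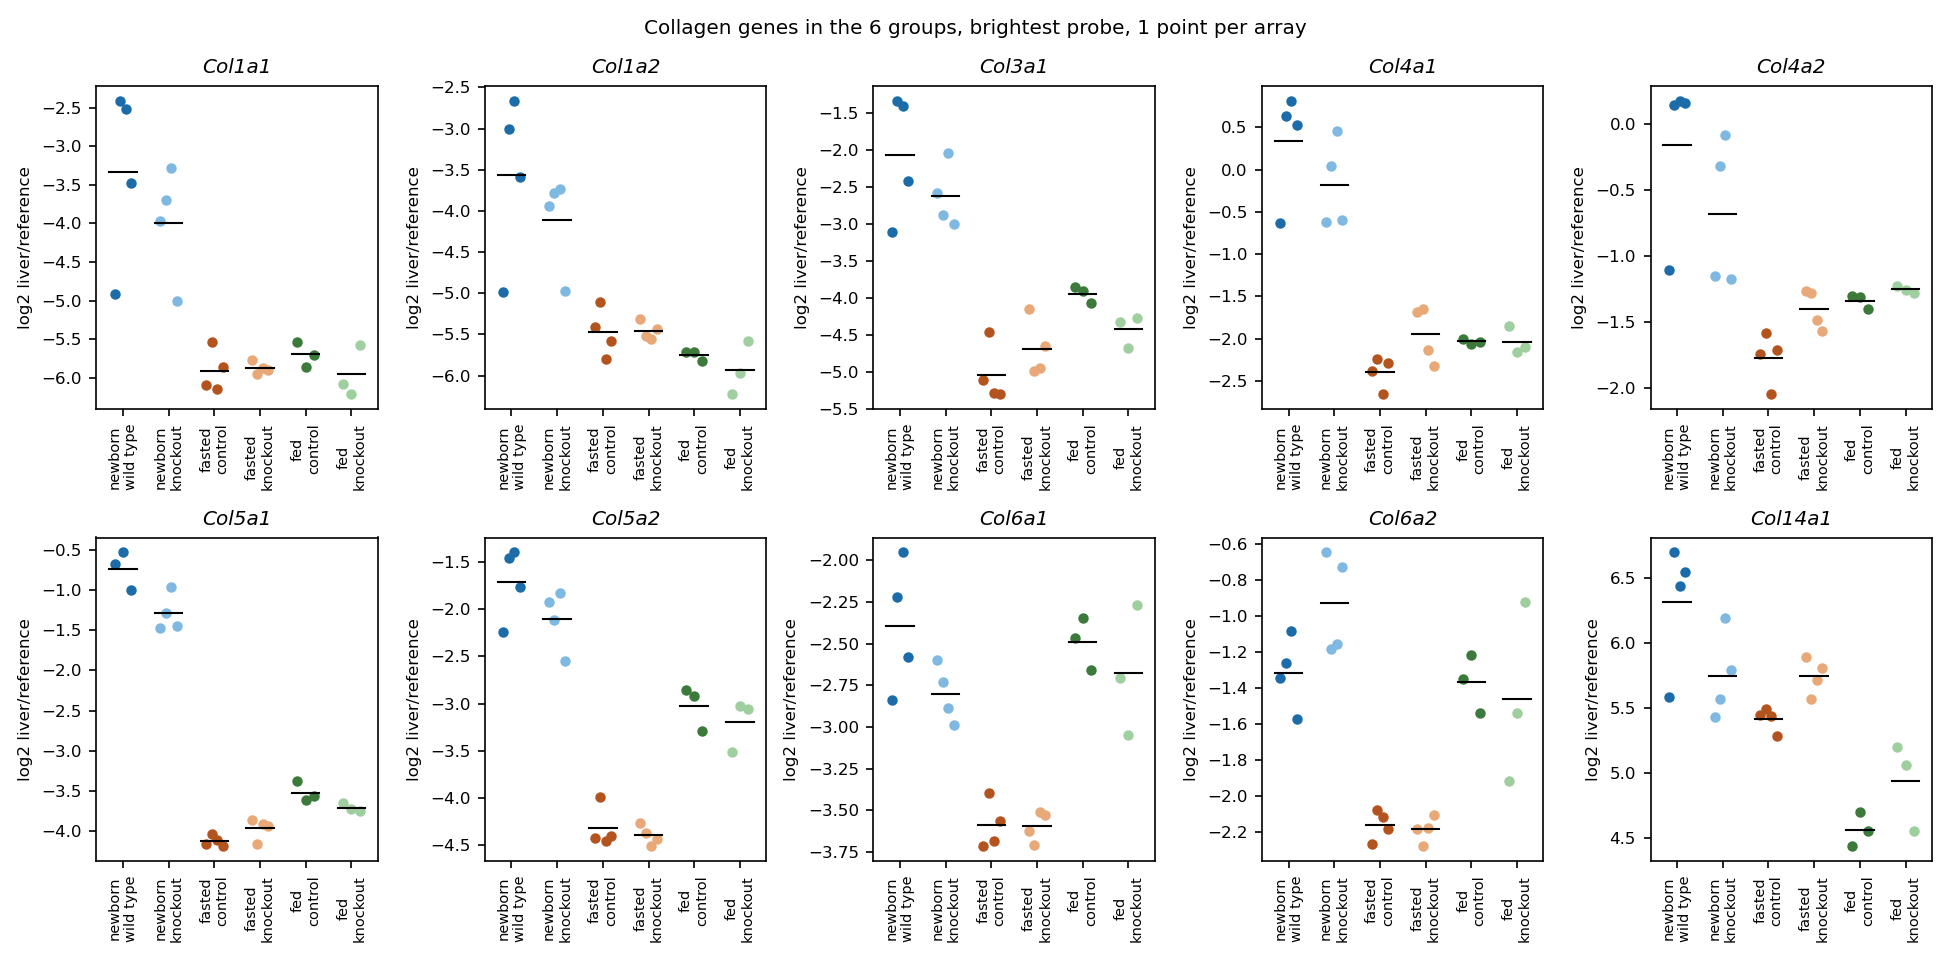
Each panel plots the log2 ratio of liver over reference of 1 collagen gene (y axis, its own scale) in the 6 groups (x axis), with 1 point per array and a line at the group mean. Col5a1 separates the newborn from the adult arrays most widely, whereas fed controls overlap the newborns for Col6a1 and Col6a2.

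Col5a1, which encodes the main chain of the type V fibril core, differed most. It read -0.68, -0.53 and -1.01 in newborn wild types 2, 3 and 4, while the spot of wild type 1, at -1.05, was left out as an outlier within the array. Fasted controls read -4.15, -4.03, -4.11 and -4.18, and fed controls -3.38, -3.61 and -3.57. The newborn and adult ranges were far apart, and the change of 3.08 ± 0.12 (SE) corresponded to 8.44-fold (limma adjusted p = 3.13e-14). From high to low the group means of Col5a1 were -0.74 ± 0.24 (SD, n = 3) in newborn wild types, -1.29 ± 0.24 (SD, n = 4) in newborn knockouts, -3.52 ± 0.13 (SD, n = 3) in fed controls, -3.71 ± 0.05 (SD, n = 3) in fed knockouts, -3.96 ± 0.13 (SD, n = 4) in fasted knockouts and -4.12 ± 0.07 (SD, n = 4) in fasted controls. Among neighbours in this order, no knockout group differed from its own control by the test. Col5a2, the second type V chain, read -2.24, -1.45, -1.39 and -1.76 in newborn wild types, -4.43, -3.99, -4.46 and -4.41 in fasted controls and -2.86, -2.92 and -3.29 in fed controls. It was higher in newborns by 1.96 ± 0.17.

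Col1a1 and Col1a2 encode the chains of type I, the most abundant fibrillar collagen. Col1a1 read -4.91, -2.41, -2.52 and -3.48 in newborn wild types 1 to 4, against -6.10, -5.53, -6.15 and -5.86 in fasted controls and -5.53, -5.86 and -5.70 in fed controls. Newborn wild type 1 stood close to the adults and the other 3 well above them, and the change was 2.47 ± 0.35, or 5.55-fold (limma adjusted p = 4.56e-06). Col1a2 was likewise lowest in wild type 1, with -4.98, -3.01, -2.66 and -3.59 in newborn wild types and adult controls between -5.82 and -5.11, a change of 2.05 ± 0.31. Col3a1, the type III chain, read -3.11, -1.33, -1.40 and -2.41 in newborn wild types, -5.30 to -4.46 in fasted controls and -4.06 to -3.85 in fed controls, a change of 2.43 ± 0.28. All 3 genes were below the reference in every liver.

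Col14a1 read far above the reference in every group, with the reference channel near its floor. It was 5.58, 6.70, 6.44 and 6.55 in newborn wild types, 5.45, 5.49, 5.44 and 5.29 in fasted controls and 4.44, 4.70 and 4.56 in fed controls. The newborn values lay above all adult controls, that of wild type 1 only narrowly above the fasted controls, and the change was 1.33 ± 0.18.

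For the basement membrane chains, Col4a1 read -0.63, 0.63, 0.82 and 0.53 in newborn wild types and -2.38, -2.24, -2.66 and -2.29 in fasted controls, so that 3 of 4 newborns were above the reference and all fasted controls below it. Fed controls averaged -2.03 ± 0.03 (SD, n = 3). The change against all adult controls was 2.55 ± 0.23, or 5.86-fold. Col4a2 read -1.11, 0.14, 0.17 and 0.15 in newborn wild types, -1.74, -1.58, -2.05 and -1.71 in fasted controls and -1.30, -1.31 and -1.40 in fed controls, a change of 1.39 ± 0.22. Because neither gene was well above background in any fed control, the liver signal sets only a bound there: newborn wild types were at least 4.88-fold higher than fed controls for Col4a1 and at least 2.75-fold for Col4a2. The same bound, the mean liver signal of the newborns over the higher of the dim probe and the lowest measurable signal of each fed array, was at least 2.66-fold for Col5a2. It compares liver signals after loess in each array and quantile normalization between arrays (Aquantile), steps that use both channels. It is therefore a bound under that normalization only, and is open to dye bias, since no dye was swapped. The single-channel signals below are of this kind, except where the liver channel alone is named.

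The microfibril chains Col6a1 and Col6a2 showed the smallest differences. Col6a1 read -2.84, -2.22, -1.95 and -2.58 in newborn wild types, -3.71, -3.40, -3.68 and -3.57 in fasted controls and -2.47, -2.34 and -2.66 in fed controls. The newborn range therefore lay above the fasted and around the fed values. Col6a1 was higher in newborns by 0.64 ± 0.15 and Col6a2 by 0.45 ± 0.15 (limma adjusted p = 0.0147), the latter with an adjusted p of 0.0649 without newborn wild type 3. Against fed controls alone the differences were 0.09 (95% confidence interval -0.29 to 0.48) and 0.05 (-0.33 to 0.43), and neither passed. Both were called higher against fed controls with the liver channel alone (1.00, limma adjusted p = 0.000171, and 0.75, adjusted p = 0.00200) and with the Feature Extraction log ratio (2.04, adjusted p = 2.93e-06, and 1.22, adjusted p = 0.000412), a setting that also raised the median of all genes from 0.08 to 0.46. Neither probe was well above background in any fed control. By the same bound as above the newborns were at least 1.72-fold higher for Col6a1 and at least 1.24-fold for Col6a2. The reference channel held the same RNA on all arrays. After Aquantile it was 0.77 lower for Col6a1 and 0.58 lower for Col6a2 on newborn wild-type than on fasted control arrays. The liver channel, also after Aquantile, was 0.42 and 0.26 higher. With the liver channel alone, neither gene passed against fasted controls (0.27, adjusted p = 0.215, and 0.09, adjusted p = 0.683).

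Taken by feeding state, 10 of 10 genes were higher in newborn wild types than in fasted controls (29.6% of all genes were called higher), with a median of 2.25. Against fed controls 8 of 10 were higher (32.4% of all genes), with a median of 1.82. These comparisons share the newborn samples. Newborn knockouts, compared with adult knockouts, were higher for 8 of 10 genes (32.9% of all genes), with a median of 1.64. Col5a1 was again the gene with the largest change among the 10, at 2.54 ± 0.11. Col6a1 (0.33, adjusted p = 0.0655) and Col14a1 (0.40, adjusted p = 0.0574) did not pass. Col14a1 passed without newborn knockout 1 (adjusted p = 0.0309) or fed knockout 1 (0.0371), and Col6a1 without fed knockout 3 (0.0146). Col4a2, called at 0.64 ± 0.22, did not pass without newborn knockout 2 (adjusted p = 0.0733) or 3 (0.103).

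**Figure D2:**
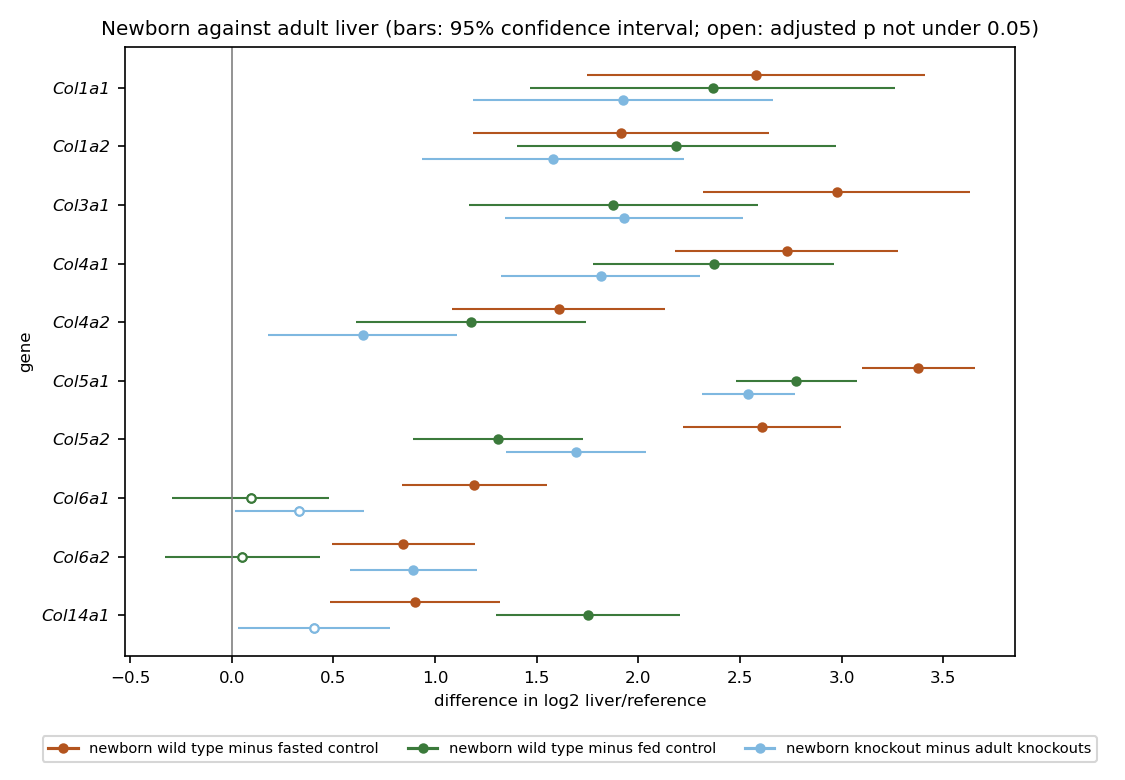
Points give the difference in log2 ratio between newborn and adult livers (x axis) for each collagen gene (y axis), in 3 comparisons, with bars for the 95% confidence interval and open points where the adjusted p was not under 0.05. The 4 open points are Col6a1 and Col6a2 against fed controls at 0.09 and 0.05 and, in knockouts, Col6a1 at 0.33 and Col14a1 at 0.40.

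The further probes gave smaller differences between newborn wild types and adult controls. With every probe tested on its own, 13 of 16 member probes were called higher, against 29.4% of all probes. The further probes of Col4a1 and Col4a2 shown above gave 1.29 ± 0.24 and 1.23 ± 0.17. The further Col1a1 probe gave 0.65 ± 0.31 and did not pass (adjusted p = 0.0822), and it was well above background on no fed array. Against fasted controls alone it was called higher (1.05 ± 0.35, limma adjusted p = 0.0157). Against fed controls alone it was not (0.26 ± 0.38, limma adjusted p = 0.587). The Col5a1 probe with the glycine triplets gave -0.18 ± 0.31 (adjusted p = 0.637), so the brightest and the further Col5a1 probes disagree. It was well above background on all 8 newborn, 7 of 8 fasted and 2 fed arrays. Its group means were -0.10 ± 0.15 (SD, n = 4) in newborn wild types and -0.28 ± 0.15 (SD, n = 4) in fasted controls. Fed controls were scattered, at 0.45 ± 1.13 (SD, n = 3). The probe was dim, with log2 signals in newborn wild types of 7.26 (liver) and 7.36 (reference). The brightest Col5a1 probe had 13.05 and 13.79 there. The further probes of Col6a2 and Col14a1 gave 0.22 ± 0.12 (adjusted p = 0.124) and 0.27 ± 0.10 (adjusted p = 0.0318). This Col14a1 probe passed the filter only through 3 newborn knockout arrays. It was well above background on no newborn wild-type or adult array. Its call, counted among the 13, therefore compares signals too dim to measure. The other 4 probes, 2 of them for Col3a1 and 1 each for Col1a1 and Col1a2, were too dim to be tested.

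Genes that act with these collagens were read from fixed lists, as counts called in newborn wild types against adult controls, beside 31.6% higher and 26.8% lower of all genes tested. Among the enzymes and chaperones of collagen synthesis and cross-linking, 12 of 26 tested genes were higher and 1 was lower, with a median of 0.30. They include Fkbp10, a collagen chaperone (2.10 ± 0.14), and Crtap, a subunit of the prolyl 3-hydroxylation complex (1.14 ± 0.08). Of the basement membrane partners, 12 of 15 were higher and none was lower, led by Smoc2 (3.36 ± 0.15) and by Nid1 (2.67 ± 0.30), which links laminin to type IV collagen. Of other matrix proteins, 18 of 27 were higher and 4 lower. Postn, a fibril-associated protein, changed by 3.13 ± 0.16 and Mfap2, a microfibril protein, by 3.29 ± 0.12, whereas Efemp1 fell by 1.73 on the log2 scale. Other collagens gave 7 higher and 4 lower of 23, a share of higher genes no larger than that over all genes, including Col8a2 at 0.60 ± 0.12 and Col5a3, another type V chain, which was lower at -2.27 ± 0.30.

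Matrix-degrading enzymes and their inhibitors gave 4 higher and 3 lower of 15, also no larger a share of higher genes than the 31.6% over all genes. The membrane-bound protease gene Mmp15 was lower (-2.50 ± 0.18) and the gelatinase gene Mmp9 higher (1.96 ± 0.28). Collagen receptors gave 4 higher and 1 lower of 8, led by the platelet receptor gene Gp6 (3.16 ± 0.13), and genes of TGF-beta signalling 5 higher and 4 lower of 15, close to the shares over all genes, among them Tgfb1 (1.06 ± 0.14) and the inhibitor gene Smad7 (-0.97 ± 0.21).

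Markers of other cells are given beside the same shares, 31.6% higher and 26.8% lower of all genes. Stellate cell and myofibroblast markers gave 8 higher and 3 lower of 20 tested, with Vim (2.73 ± 0.18) higher and Cygb (-1.12 ± 0.17) lower. Their summed log2 liver signal ranged from 16.13 to 16.40 in newborn wild types, from 14.81 to 15.22 in fasted controls and from 14.90 to 15.00 in fed controls. Portal fibroblast and mesothelial markers gave 7 higher and 1 lower of 11, with summed log2 signals of 14.29 to 14.81, 15.72 to 15.89 and 15.80 to 15.87 in the same groups, so that the sum was lower in newborns although more members were higher than lower. Their mean log2 ratio was higher in newborns, at -1.02 to -0.60, against -1.57 to -1.32 in fasted and -1.42 to -1.22 in fed controls. A sum is weighted to the brightest genes of a list, and which genes carried it was not examined. Endothelial markers gave 6 higher and 3 lower of 18, with Lyve1 at 4.12 ± 0.29. Cholangiocyte markers gave 5 higher and 1 lower of 7, and Kupffer cell markers 4 higher and 1 lower of 13. The shares of higher genes among endothelial and Kupffer cell markers were close to that over all genes. Erythroid and megakaryocyte markers gave 16 higher and none lower of 17, with a median of 4.26, and fetal liver markers 5 higher of 5, with a median of 5.75. Hepatocyte markers gave 3 higher and 4 lower of 10, and markers of pancreas and fat 2 higher and 1 lower of 10. The part of these cells in the collagen differences was not tested. In whole liver, fewer cells of a type and less RNA per cell cannot be told apart.

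The newborn livers differed from each other more than the adult ones. Averaged over the 10 genes, each centred on its mean, newborn wild types had an SD of 0.65 and newborn knockouts of 0.30, against 0.08 to 0.17 in the adult groups. The average of newborn wild type 1 lacks Col5a1, the gene with the largest newborn difference, so its average and the SD of 0.65 rest on unlike sets of genes. Newborn wild type 1 was the lowest of its group for 8 of 10 genes, with Col5a1 not measured there, and newborn knockout 4 for 6 of 10. Col1a1 read -3.96, -3.70, -3.29 and -5.01 in newborn knockouts, so knockout 4 stood apart. Col4a2 read -1.15, -0.32, -0.09 and -1.17, with knockouts 1 and 4 at the level of wild type 1. Col6a2 ran the other way, with -0.65, -1.19, -1.16 and -0.73, highest in knockouts 1 and 4.

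Col1a1's brightest probe is printed 10 times on the array, and its replicate spots on 1 array had SDs of 0.04 to 0.10 on newborn wild-type and knockout arrays and of 0.39 to 0.57 on fed control arrays. Other measures of newborn wild type 1 differed as well. The mean log2 ratio of basement membrane partners was -1.07 there against -0.45 to -0.17 in the other wild types, that of stellate cell markers -0.04 against 0.17 to 0.66, and 50.2% of its liver spots were well above background against 55.9% to 59.4%. In newborn knockouts 1 and 4 the basement membrane partners read -1.08 and -0.98, against -0.67 and -0.51 in knockouts 2 and 3. Their part in the collagen values was not tested. Without these 3 arrays, chosen after seeing their low values, all 10 genes were called higher in newborn wild types than in adult controls, with a median of 2.33. Leaving out wild type 1, the lowest for most genes, raises the newborn mean, so this fit cannot check those calls.

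Across the 22 arrays the 45 pairs of genes had a median Pearson correlation of 0.80, of which the difference between newborn and adult arrays is a part. Within the 8 newborn arrays the median was 0.85 and the lowest -0.62 (Col4a2 and Col6a2), and Col6a2 correlated negatively with each of the other 9 genes. Within the 14 adult arrays, where fed and fasted arrays form separate sets, the median was 0.36 and the lowest -0.89 (Col6a1 and Col14a1), and Col14a1 had r = -0.88 with both Col5a2 and Col6a2. Among direct neighbours on a chromosome, within the newborn arrays Col4a1 and Col4a2 had r = 0.99, Col3a1 and Col5a2 r = 0.92 and Col6a1 and Col6a2 r = -0.16. Within the adult arrays the same pairs had r = 0.86, 0.77 and 0.94. The points of a pair share their arrays, dyes and normalization, and no test was made. The non-member genes most like the mean of the 10 over the 22 arrays were Zfp618 (r = 0.97), Nsmaf, Zgrf1, Apaf1, Plagl1, Myo1c, Lrrk2, Adcy7, Chst3 and Fstl1 (r = 0.97), of 15130 genes compared, 803 of which had r over 0.9.

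As all 10 genes were higher in newborn wild types, their promoters were searched for short motifs in RefSeq windows (GRCm38.p6) of 250 bases before to 50 bases after each start. Windows were at hand for 7 of the 10 genes, 8 windows in all. Col4a1 and Col4a2 are transcribed in opposite directions, and their gene models overlap at the starts, which lie 21 bases apart. The 78 bases that their windows share lie around these starts. On either strand CCAAT was in 3 of the 8 windows (Col1a2, Col4a1 and Col4a2) and in 37.4% of all 32851 windows. GGGCGG was in 6 of 8 (Col1a2, Col4a1, Col4a2, Col5a1 and Col6a2) and in 35.7% of all. The third motif searched, CCCCTCCCC, was in 3 of 8 (Col4a1, Col4a2 and Col6a2) and in 6.37% of all. A match in the bases that Col4a1 and Col4a2 share counts for both. The 250 bases before the Col1a2 start, chr6:4505368-4505617 on the plus strand of GRCm38.p6, hold CCAAT and GGGCGG, in capitals, and are given as an example of a type I collagen promoter. A match is a description of letters and not of a bound site.
Col1a2 promoter: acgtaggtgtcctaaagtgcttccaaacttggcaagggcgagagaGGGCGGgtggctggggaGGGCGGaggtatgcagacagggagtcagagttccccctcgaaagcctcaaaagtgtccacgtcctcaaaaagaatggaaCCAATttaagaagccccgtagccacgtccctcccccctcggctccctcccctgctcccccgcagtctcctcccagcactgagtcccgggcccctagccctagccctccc

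No collagen gene passed the test in any knockout comparison. In newborns, 0 of 10 genes were called (1.41% of 17175 genes tested were called), and 3 had an unadjusted p under 0.05, against 13.4% of all genes. The knockout value was below wild type for 9 of 10 genes, with a median of -0.54 against -0.01 over all genes. Col5a1 read -1.48, -1.28, -0.96 and -1.46 in newborn knockouts, overlapping the wild types by 1 array only, and its difference of -0.55 (95% confidence interval -0.95 to -0.16) had the smallest adjusted p of the 10, 0.180. Col14a1 differed by -0.57 (95% confidence interval from -1.14 to just below 0, adjusted p = 0.372). For Col1a1 the interval ran from -1.90 to 0.58, so that a fall of up to 1.90 on the log2 scale could not be told from no change in these 8 livers. By the brightest probes, Col6a2 was the 1 gene with a higher value, 0.39 (0.02 to 0.75, adjusted p = 0.337). Its further probe was lower, at -0.22 ± 0.15, and the further Col5a1 probe gave -0.01 ± 0.13 (limma adjusted p = 0.626 and 0.990). The further Col1a1, Col4a1 and Col4a2 probes gave -0.37, -0.50 and -0.43. The further Col14a1 probe, too dim for the newborn fit, averaged 0.30 ± 0.18 in wild types and 0.82 ± 0.18 in knockouts (SD, n = 4 each). Over the fits that left out 1 newborn at a time, the median of the 10 ranged from -0.83 without wild type 1 to -0.35 without wild type 3, and no gene was called.

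In fasted adults 0 of 10 genes were called (0.465% of 17188 genes), 3 had an unadjusted p under 0.05 (11.2% of all genes) and the median was 0.10. By the brightest probes, the largest differences were in the basement membrane chains. Col4a2 read -1.74, -1.58, -2.05 and -1.71 in controls and -1.26, -1.28, -1.49 and -1.57 in knockouts, and all knockouts lay above all controls, as did 2.99% of all genes. The difference was 0.37 (0.13 to 0.61, adjusted p = 0.203), and it was 0.39 within 1 of the 2 slides and 0.35 within the other. Col4a1 differed by 0.44 (0.12 to 0.77, adjusted p = 0.279), with 0.64 and 0.25 within the slides. The further probes gave less, 0.22 ± 0.10 for Col4a2 and 0.08 ± 0.10 for Col4a1 (limma adjusted p = 0.464 and 0.847). The further Col1a1 probe gave 0.47 ± 0.39 (adjusted p = 0.749). Col14a1, the other gene without overlap, differed by 0.33 (0.04 to 0.62, adjusted p = 0.376), and by 2.50 (adjusted p = 0.0921) when extreme local backgrounds were kept. The intervals of Col1a1 and Col1a2 ran from -0.30 to 0.38 and from -0.31 to 0.36. Pancreas and fat markers varied widely among fasted knockouts, with mean log2 ratios of 0.88 to 4.02, against 0.97 to 1.60 in fasted controls. Their median difference was 1.11 over 8 tested genes, 6 of them above 0 and none called. The part of such tissue in the collagen values was not tested.

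In fed adults 0 of 10 genes were called (0.215% of 17188 genes), 1 had an unadjusted p under 0.05 (7.14% of all genes) and the median was -0.18. Col14a1 had the smallest adjusted p, 0.614, at 0.37 (0.04 to 0.71), with 0.69 within 1 slide and -0.07 within the other. Col3a1 read -3.85, -3.90 and -4.06 in controls and -4.32, -4.67 and -4.26 in knockouts, with no overlap (4.18% of all genes lay lower in this way) and a difference of -0.48 (-1.01 to 0.04, adjusted p = 0.773). Col5a1 also lay lower in all fed knockouts than in all fed controls, by -0.19, and Col4a2 higher, by 0.08 (7.02% of all genes lay higher in this way), and neither passed. The interaction of genotype with fasting gave 0 calls among the 10 genes and 0 among all 17188 (limma; 1135 had an unadjusted p under 0.05). Col3a1 had the largest interaction of the 10, 0.83 (0.14 to 1.53, adjusted p = 0.705).

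**Figure D3:**
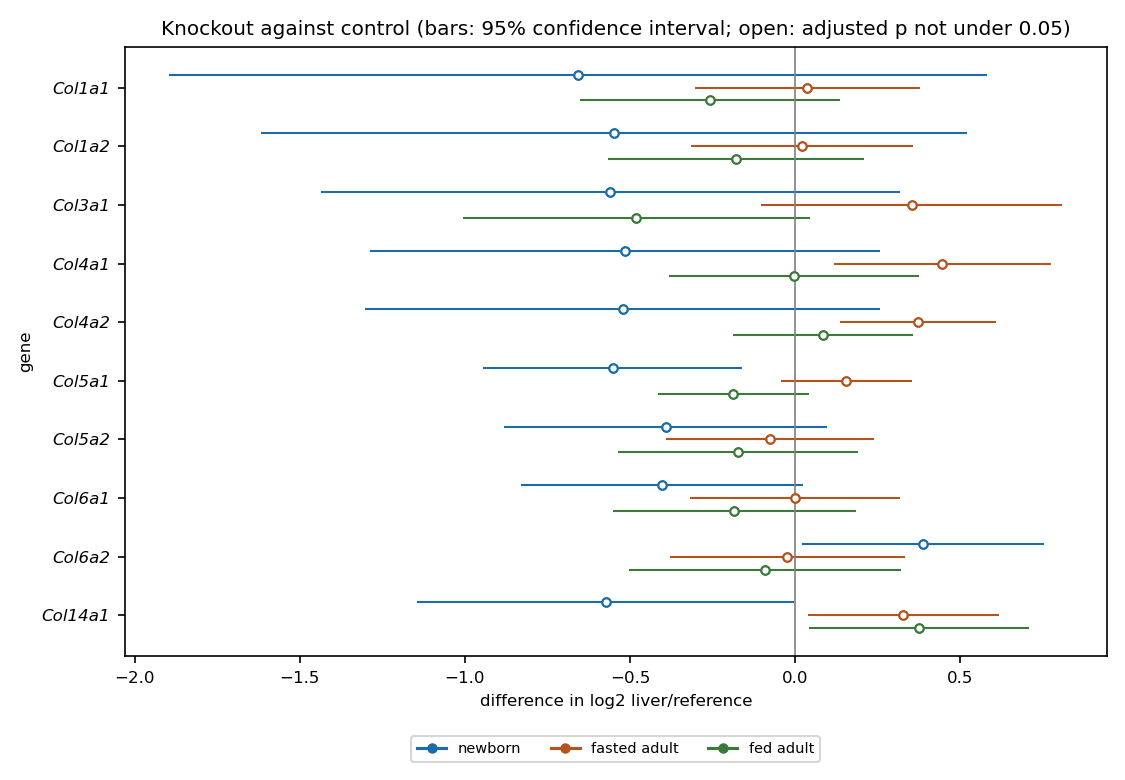
Points give knockout minus control in log2 ratio (x axis) for each collagen gene (y axis) in newborn, fasted and fed livers, with bars for the 95% confidence interval and open points where the adjusted p was not under 0.05. All points are open, and 9 of the 10 newborn points lie below 0.

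The genes of the 16 lists were likewise mostly without calls in the knockout comparisons. The 1 list gene that passed was the Kupffer cell marker Marco, lower in newborn knockouts by -1.34 ± 0.17 (limma adjusted p = 0.00844).

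Fasted livers had lower ratios than fed livers for 6 collagen genes in controls, Col3a1, Col4a2, Col5a1, Col5a2, Col6a1 and Col6a2, and a higher ratio for Col14a1, against 16.6% of all genes called lower and 20.2% called higher. In knockouts Col5a2, Col6a1 and Col6a2 were lower (16.9% of all genes) and Col1a2 and Col14a1 higher (18.8%). With every probe tested on its own, 1 of 15 member probes was higher and 8 lower in controls (22.2% and 15.7% of all probes). In knockouts 3 were higher and 6 lower (19.6% and 15.9%). The further Col6a2 probe ran against the brightest, at 0.27 (limma adjusted p = 0.120) in controls and 0.66 (0.00212) in knockouts. In knockouts the further Col4a1, Col4a2 and Col5a1 probes were called lower (-0.61, -0.76 and -1.35), but their brightest probes were not. The directions of the ratios were not those of the liver channel for every gene, and the reference channel itself differed between the fasted and fed arrays. Its part in the directions was not tested. Col6a1 changed by -1.10 in controls, where its reference signal was 1.46 higher on fasted arrays and its liver signal 0.36 higher. Col5a2 changed by -1.30, with a reference signal 1.21 higher and a liver signal 0.09 lower, and Col6a2 by -0.79, with 0.83 higher and 0.04 higher. None of these 3 was well above background in any fed liver. These channel signals are those after Aquantile. With the liver channel alone, normalized without the reference, Col5a2 was 1.01 and Col6a2 0.66 higher in fasted controls. By the bound from the liver channel, fasted controls were at least 1.28-fold higher for Col6a1, opposite to the ratio.

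Col14a1 behaved differently, as its change of 0.85 ± 0.14 in controls came with a liver signal 0.74 higher and a reference signal 0.12 lower, and it was well above background on every array. In knockouts it changed by 0.81 ± 0.14. It was nevertheless -1.32 ± 0.81 in controls when extreme local backgrounds were kept. Col3a1, also measured on every array, changed by -1.10 ± 0.23 in controls, with a liver signal 0.59 lower and a reference signal 0.51 higher, and by -0.27 ± 0.23 in knockouts, which did not pass. Col1a2 in knockouts (0.47 ± 0.17, adjusted p = 0.0427) no longer passed when any 1 of the 4 fasted knockouts, or fed knockout 1 or 2, was left out (limma adjusted p from 0.0569 to 0.185). Fasted and fed mice were on separate slides, so feeding and slide cannot be told apart.

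**Figure D4:**
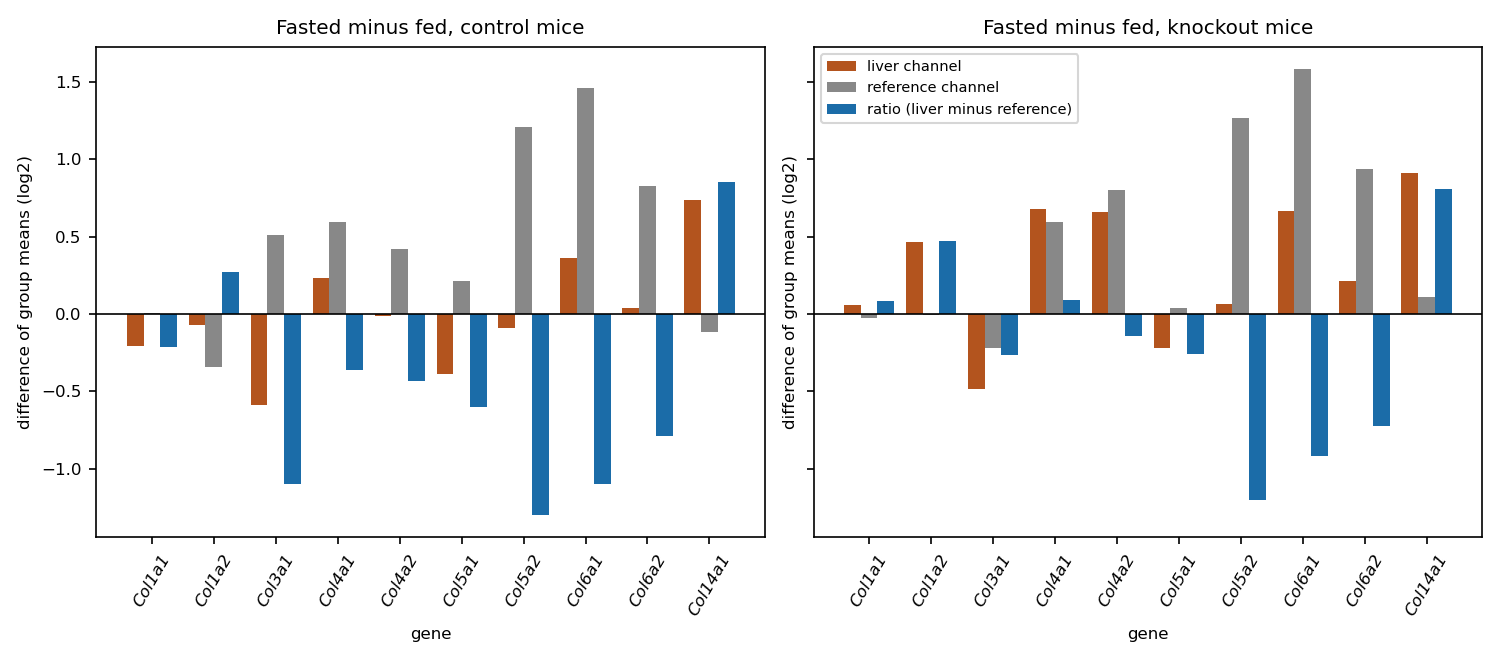
Bars give fasted minus fed group means in log2 (y axis) for each collagen gene (x axis), for the liver channel, the reference channel and their ratio, in control (left) and knockout (right) mice. Both channels are shown after loess and Aquantile. The reference bars are the tallest for Col6a1, at 1.46 in controls and 1.58 in knockouts, where the ratio falls while the liver signal does not.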

How the data were processed

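Gene expression was measured in 22 mouse livers on Agilent 2-colour arrays of design 014868, with liver RNA in Cy3 and the reference RNA in Cy5 per the labels. Per the file headers, Feature Extraction 10.5.1.1 made the deposited median spot and background intensity values, while the submitters' processing notes name version 8.5.1.1. The deposited log10 ratio of reference over liver, which Feature Extraction computed per the file headers, served as an alternative.

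Median intensities were corrected with normexp (offset 50) and normalized by loess in each array. Signals of single channels were split from these values after Aquantile. The setting named liver channel alone used quantile-normalized liver intensities without the reference. Local backgrounds marked as outliers were first replaced by the array's median background, a step taken over from earlier work on these data. Outlier spots, 11 of 638 for the collagen genes, were set to missing, and spots of one probe were averaged. A gene was read from its brightest probe that was well above background on at least 3 arrays (4 in the newborn fit). limma 3.58.1 in R 4.3.3 was fitted to all 22 arrays for age (16 residual degrees of freedom), to the 8 newborn arrays (6) and to the 14 adult arrays (10), two-sided, with Benjamini-Hochberg adjustment over all genes tested. The labels call the samples biological replicates. Of 41174 probes, 32831 were named through RefSeq (GRCm38.p6), and the others kept the file's name. Figures were drawn with matplotlib 3.10.9.

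The genes, lists and tests were chosen with earlier results of these data known. All 10 genes are named, with up to 4 members per list that had the smallest adjusted p for newborn wild types against adult controls, any list member passing in a knockout comparison, and the 10 genes most like the collagen mean; not every list gene so taken is described. Alternatives were other background, normalization and filter settings, every probe, replicate and slide blocks, and each array left out.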

Additional observations from a re-analysis of the deposited data

Results flagged for a closer look

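Among 39 sets of 4 arrays of a group, each with the values of 1 collagen gene, 3 held an array farther from the others than Dixon's 95% limit allows, and chance alone gives about 1 in 20. Col1a2 was -4.97 in newborn knockout 4, against -3.94 to -3.73 in the other newborn knockouts. Col4a2 was -1.11 in newborn wild type 1, against 0.14 to 0.17 in the other wild types. Col5a2 was -3.99 in fasted control 2, against -4.46 to -4.41 in the other fasted controls.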

How the results depend on the processing

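Across the alternatives, leaving out single arrays included, no collagen gene was called in any knockout comparison. For newborn wild types against adult controls 8 to 10 genes were called, with medians of 1.89 to 2.47, and 9 to 10 with medians of 1.80 to 2.33 when 1 array was left out. Col6a1 and Col6a2 were the genes that lost this call. With the slide as a random block, 10 were called. Across the alternatives other than leaving out arrays, 7 to 10 genes were called against fasted controls alone, 7 to 10 against fed controls alone and 8 to 9 for newborn against adult knockouts; with 1 array left out these were 10, 8 and 7 to 9.

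Where a gene was called in the main fit or in the alternative set against it, changes of direction occurred only in fasted minus fed. Without a call in either, Col14a1 fell to -0.14 in newborn against adult knockouts. Col6a1 fell likewise to -0.06 and Col6a2 to -0.03 in newborn wild types against fed controls. These 3 were called higher under some other settings. Medians of the 10 genes without calls changed sign too: with local backgrounds kept, from 0.10 to -0.33 for fasted knockouts against controls and from 0.24 to -0.14 for the interaction, and within 1 slide from -0.18 to 0.06 for fed knockouts against controls. In fasted minus fed, with local backgrounds kept, 0 genes were called in controls (7 before) and 1 in knockouts (5 before), and Col5a2 was 0.057 and Col14a1 -1.32 in controls. With the Feature Extraction log ratio, Col4a1 was 1.52, Col6a2 0.27, Col6a1 0.99, Col4a2 0.99 and Col1a1 0.48 in controls, and Col6a2 0.17, Col6a1 0.90 and Col4a2 0.86 in knockouts. With the liver channel alone, Col4a1 was 0.69, Col5a2 1.01, Col6a2 0.66, Col6a1 0.73 and Col4a2 0.25 in controls, and Col5a2 0.95, Col6a2 0.64, Col6a1 0.92 and Col4a2 0.77 in knockouts. With the liver channel after quantile normalization between arrays (Aquantile), chosen after seeing the data, 2 genes were called in controls and 3 in knockouts, and Col6a2 was 0.040 and Col6a1 0.36 in controls, and Col5a2 0.067, Col6a2 0.21 and Col6a1 0.67 in knockouts. The cause was not tested.

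Deviations of same-numbered samples correlated at r = 0.49, 0.34, 0.38 and -0.23 for newborn replicates 1 to 4, from -0.02 to 0.10 in fasted and from -0.10 to 0.15 in fed mice. Since not every pair was over 0.1 in any of these sets, the numbers were not taken as pairs. With the replicate block, 10 genes were called for newborn wild types against adult controls, 8 for newborn against adult knockouts and 0 in each knockout comparison, and Col1a2 in fasted against fed knockouts no longer passed (0.49, limma adjusted p = 0.0786), and no other call of a collagen gene changed.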
